A study of Mus musculus with 16 samples.

Results

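Histones are the proteins around which nuclear DNA is wrapped. The core histones H2A, H2B, H3 and H4 form the nucleosome, and the linker histone H1 binds the DNA that enters and leaves it. Most of their genes lie in clusters of near-identical copies and are transcribed mainly while a cell copies its DNA, under the coactivator NPAT. Their mRNAs end in a short stem-loop bound by SLBP in place of a poly(A) tail, and they are degraded when replication stops. Microglia, the resident macrophages of the brain, divide rarely in the healthy adult, so most of their histone exchange is thought to use the replacement variants, whose genes lie elsewhere and give polyadenylated mRNAs.

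The clustered histone genes were taken as every gene of the count table whose symbol is H1f, H2ac, H2bc, H3c or H4c followed by a digit, whatever its count. This gave 76 of 57010 genes, of which 12 encode H1, 20 H2A, 19 H2B, 12 H3 and 13 H4. The rule also takes in single genes outside the clusters, such as H1f0 on chromosome 15 and H1f10 on chromosome 6. Of the 76 genes, 60 reached 5 counts in 8 or more of 16 libraries and were tested (7 H1, 14 H2A, 16 H2B, 10 H3 and 13 H4 genes), and 7 had no count at all.

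The libraries came from CD11b-selected cells of the olfactory bulb of mice aged 2 months. WT mice were C57BL/6J. APP-NL-G-F mice (KI) carry a humanised amyloid precursor protein gene with the Swedish, Beyreuther/Iberian and Arctic changes, knocked into the mouse App locus, so it is expressed wherever App is. Each genotype had 4 female (WT_f, KI_f) and 4 male (WT_m, KI_m) libraries. The study asked how microglia differ at the age when noradrenergic axons begin to disappear from the bulb.

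The libraries held between 9052932 and 18117286 counts, and 3 counts, the limit that a count of 0 allows, were worth 0.166 to 0.331 CPM, the count relative to library size (scaled here by TMM). The 8 microglial markers summed to between 16904 and 20165 CPM in WT and between 16968 and 19887 CPM in KI, and none was called different. The labels of sex held in all 16 libraries, with Xist between 547 and 862 CPM in females and at most 0.448 CPM in males. App was at 371 to 462 CPM in WT and 388 to 423 CPM in KI, a count that does not check the genotype labels, since the knock-in keeps the gene. The paper reports that its authors checked the groups by looking for the knock-in mutations in the aligned reads, which were not examined here. No 2 libraries of a group held identical counts.

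The stem-loop that defines replication-dependent histone mRNAs was looked for as 6 paired bases, opening with a pair of guanines and closing with a pair of cytosines, around a loop of 4 bases that opens with a pair of thymines, within 150 bases after a stop codon (GRCm39). It was found in 63 of 72 histone genes with an annotated stop codon (87.5%) and in 26 of 21590 other protein-coding genes (0.12%). The commonest core, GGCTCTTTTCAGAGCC, was shared by 41 histone genes. The 4 examples below show that core in the most abundant H1 gene and its variants in an H4, an H2A and an H3 gene, with the stem and loop in capitals and 5 flanking bases on each side.
H1f2 (chr13:23923490-23923515, + strand): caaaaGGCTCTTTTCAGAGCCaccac
H4c4 (chr13:23765928-23765953, + strand): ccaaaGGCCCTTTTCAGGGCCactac
H2ac20 (chr3:96127729-96127754, - strand): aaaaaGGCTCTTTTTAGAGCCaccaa
H3c7 (chr13:23729097-23729122, + strand): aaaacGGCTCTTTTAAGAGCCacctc

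The search found no such stem-loop after a stop codon in H1f0, H1f7, H1f8, H1f9, H1f10, H2bc21, H2ac22, H3c8 and H4c1. Among tested genes with a stem-loop, 53 in all, 11 were called lower in KI in the genotype test over both sexes described with the fold changes (4.3% of all genes tested were), and among the other 7 tested genes 3 were (H4c1, H2ac22 and H2ac5-ps). Of these 7, the pseudogenes H2ac5-ps and H2bc26-ps were not searched, the first for want of an annotated stop codon and the other for want of a position. Genes called lower were thus found both where the search hit a stem-loop and where it did not or was not run. A miss by this exact pattern does not show that a gene lacks the loop.

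Promoter letters, read from RefSeq (GRCm38.p6) for the 62 histone genes that matched by symbol, set the classes apart. In the 250 bases before and 50 after the start, read on both strands, CCAAT (bound by NF-Y) was found in all 17 H2A, 14 H2B and 10 H3 promoters, against 37.9% of all 27025 promoters, and in 7 of 10 H1 and 3 of 11 H4 promoters. The octamer ATTTGCAT (bound by POU2F1) was found in 6 H2A and 6 H2B promoters and in no other class, against 1.75% of all promoters. Divergent genes share promoter DNA, so the same octamer was counted for both genes of the pairs H2ac8 and H2bc8, H2ac12 and H2bc12, and H2ac1 and H2bc1. CCAAT boxes were likewise counted for both genes of divergent pairs such as H2ac13 and H2bc13, so the H2A and H2B promoters are not all separate DNA. GGTCCG, part of the element bound by HINFP, was found in 10 of 11 H4 promoters against 8.39%, and AAACACA, the core of the H1 box, in 5 of 10 H1 promoters (H1f2, H1f3, H1f4, H1f5 and H1f6) against 7.14%. The motif AAACACA was added after the data had been seen.

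Promoter stretches of genes called lower in KI are shown, with matches on either strand to the CCAAT box, the octamer, the H1 box core and the TATA box in capitals. The TATA box was searched as TATAAA and was found in 54.8% of histone promoters against 14.2% of all. The stretch between the starts of the divergent pair H2ac8 and H2bc8 holds all of these but the H1 box core, and the stretch before H1f2 holds that core and a CCAAT box.
H2ac8 and H2bc8 (GRCm38.p6 chr13:23571221-23571399, + strand): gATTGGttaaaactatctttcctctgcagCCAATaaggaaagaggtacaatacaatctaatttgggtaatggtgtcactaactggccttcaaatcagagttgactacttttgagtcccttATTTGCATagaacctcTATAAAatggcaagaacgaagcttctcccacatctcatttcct
H1f2 (GRCm38.p6 chr13:23738557-23738806, + strand): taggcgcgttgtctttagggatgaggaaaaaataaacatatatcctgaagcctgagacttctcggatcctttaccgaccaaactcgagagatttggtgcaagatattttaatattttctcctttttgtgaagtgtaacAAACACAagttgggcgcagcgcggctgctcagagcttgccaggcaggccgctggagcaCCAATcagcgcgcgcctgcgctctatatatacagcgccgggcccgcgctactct

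The histone genes held between 0.0486% and 0.0878% of the counts of a library. H1 genes supplied 50.2% of all histone counts, H4 genes 20.9%, H2B genes 13.03%, H2A genes 9.33% and H3 genes 6.45%. A few genes carried each class. H1f2, encoding H1.2, held 22.5% of all histone counts and H1f4, encoding H1.4, 13.5%, while H4c4 held 46.0% of the H4 counts, H2bc4 32.0% of the H2B counts, H3c6 28.7% of the H3 counts and H2ac20 23.6% of the H2A counts. Per kilobase of annotated exon, H1f2 was highest at 92.5 CPM per kb, followed by H4c4 at 53.9, H1f4 at 44.8, H4c8 at 31.9, H2ac20 at 27.3 and H2bc8 at 22.2 CPM per kb. The annotated exon of H1f3 spans 7425 bases, which lowers its level per kilobase to 4.59 CPM per kb.

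Near-identical copies limit what can be read for single genes. Of the 75 genes placed on GRCm39, 10 had at least 90% of their 75-base windows repeated elsewhere in the genome, and 7 of these 10 were among the 16 genes that were not tested. H2bc23, H2bc24, H2ac19, H2ac23 and H2ac24 were repeated over 100% of their windows and had between 0 and 64 counts in all libraries together. Tested genes ranged from 0 to 93.5% with a median of 34.4%, so a low count of a copy does not show that its mRNA was absent. Just inside the count filter, H2bc22 and H2ac12 had 5 counts in 8 libraries and H3c15 and H2ac5-ps in 9. Just outside it, H3c8 and H1f6 reached 5 counts in 6 libraries.

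Summed over all members, histone expression was lower in KI in both sexes. The total was 758 ± 150 CPM in WT (SD, n = 8, range 577 to 954) and 521 ± 32.8 CPM in KI (SD, n = 8, range 464 to 560), so the ranges did not meet. The H1 sums had the lowest KI to WT ratio of the classes, at 398 ± 116 CPM in WT and 244 ± 20.9 CPM in KI (SD, n = 8 each), with WT_f 1 and WT_f 2 highest at 579 and 554 CPM. H4 sums ranged from 135 to 174 CPM in WT and from 110 to 132 CPM in KI, again without overlap, while the H1, H2A, H2B and H3 sums overlapped, for H1 between WT_m 1 at 273 CPM and KI_f 1 at 279 CPM. The plot of class sums shows that spread between WT libraries was wider than between KI libraries. In bulk samples, fewer cells of a type and less RNA per cell cannot be told apart.

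**Figure D1:**
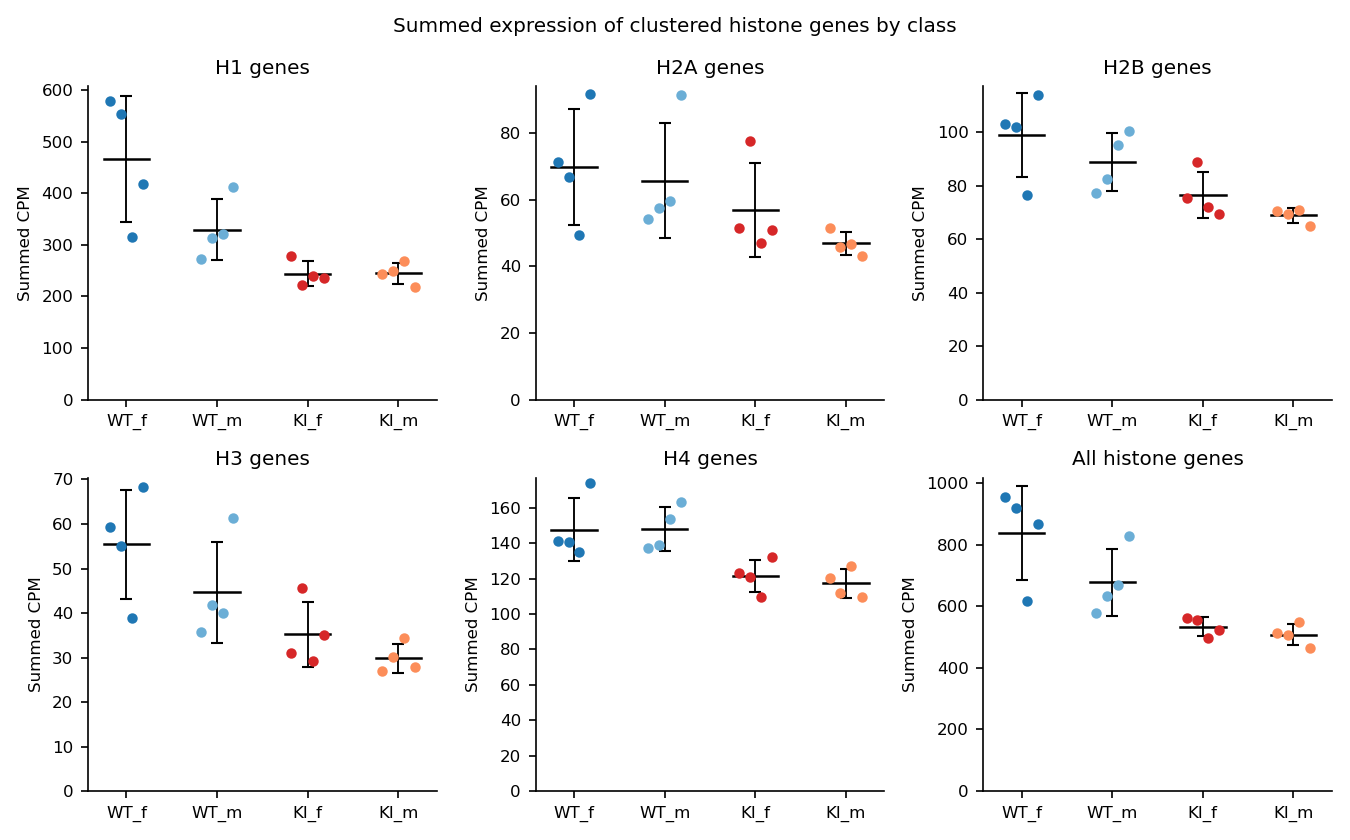
Summed CPM of the histone genes of each class, and of all 76 genes, in each of the 16 libraries (points; y axis from 0), with the mean and SD of each group of 4 (black lines). Every KI library lies below every WT library for the total and for H4, with KI totals at 464 to 560 CPM and WT totals at 577 to 954 CPM.

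Over both sexes, 14 of the 60 tested histone genes were lower in KI with an FDR under 0.1 and a log2 fold change beyond 0.5 in size (edgeR quasi-likelihood test with sex as a term), and none was higher. Among all 18227 genes tested, 4.3% were called lower and 4.33% higher. At an unadjusted p below 0.05, 25 histone genes were lower and 1, H4c9, was higher, where 11.8% and 12.3% of all genes were, and DESeq2 and limma voom also called none higher. The fitted log2 fold change was below 0 for 55 of 60 histone genes, against 50.4% of all genes, and its median was -0.38 against -0.00. Without WT_f 4 and WT_m 4 that median was -0.21. In replicates 1 and 2 of all groups alone, KI was below WT for 40 of the 60 genes (median difference -0.14 in log2 CPM), and in replicates 3 and 4 alone for 55 (median -0.52), with 37 below in both. At FDR alone, 21 histone genes were lower, where 7.82% of all genes were. Without WT_f 1 and WT_f 2 together 9 histone genes were called, without WT_f 4 and WT_m 4 together also 9, and by library totals in place of TMM 9 as well, all of them among the 14.

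**Figure D2:**
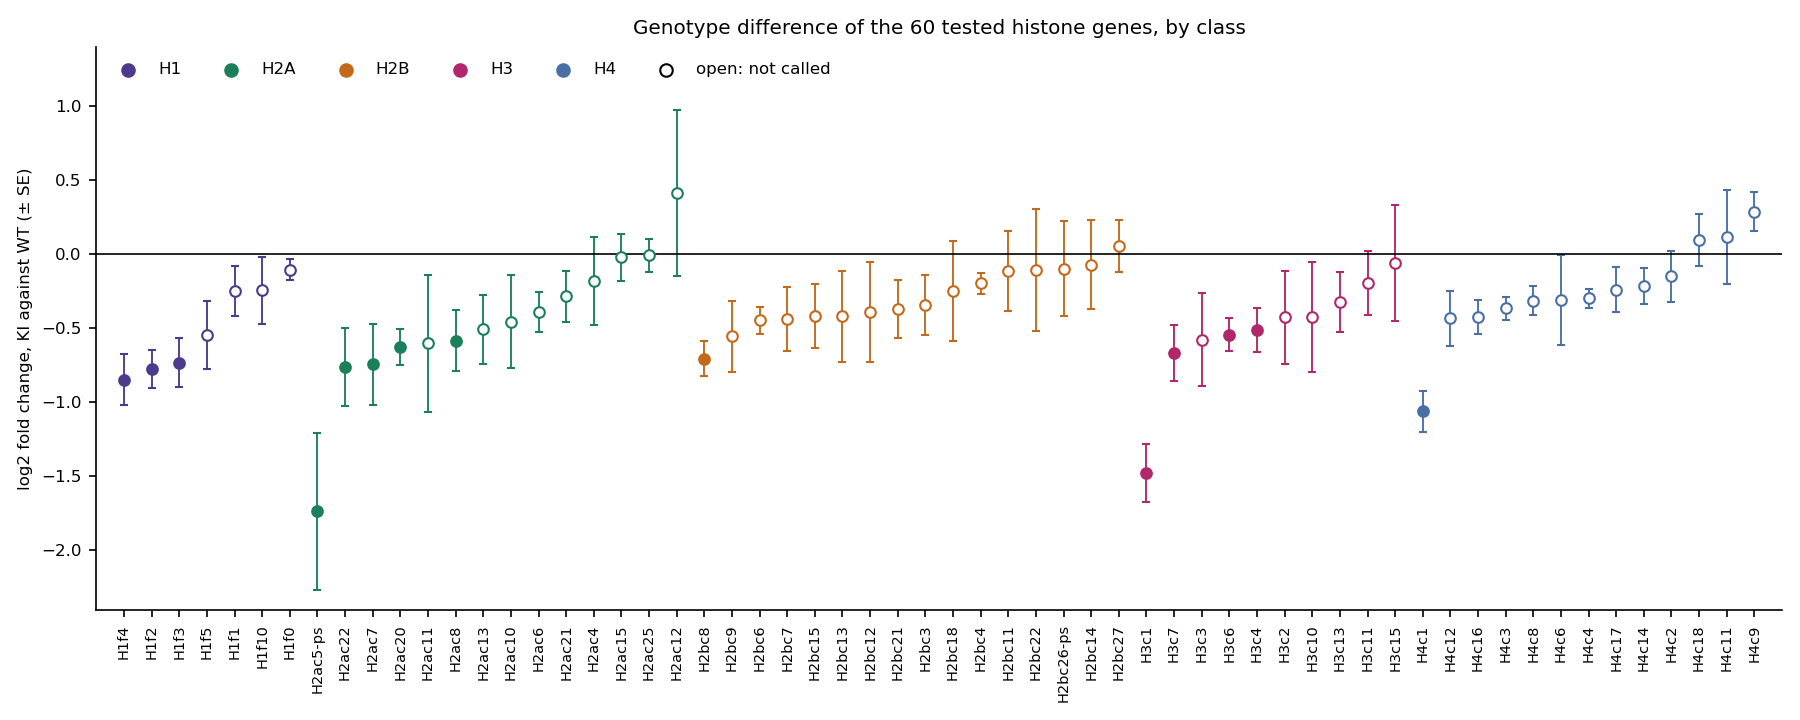
Log2 fold change of KI against WT over both sexes (y axis, points, with the standard error) for each of the 60 tested histone genes (x axis), coloured by class and ordered within it. Filled points are the 14 genes called lower, and 55 of the 60 points lie below 0.

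Among the H1 genes, the somatic subtypes H1f2, H1f3 and H1f4 were called lower and the other 4 tested were not. H1f2 (ENSMUSG00000036181.3, chr13:23922791-23924350, 1 exon) was at 260, 262, 152 and 190 CPM in WT_f, at 128, 146, 136 and 191 CPM in WT_m, at 120, 94.1, 96.8 and 104 CPM in KI_f and at 107, 113, 117 and 90.6 CPM in KI_m. Every KI library was below every WT library, and WT_f 1 and WT_f 2 stood above the others. Its log2 fold change was -0.77 ± 0.13 (SE, FDR 0.000992), and the exact permutation of genotype within sex gave p = 0.000408, the smallest that its 4900 splits allow.

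H1f4 (ENSMUSG00000051627.4, chr13:23804612-23806541) was at 193, 178, 84.4 and 109 CPM in WT_f, at 67.2, 82.2, 78.6 and 106 CPM in WT_m, at 75.7, 50.6, 60.2 and 54.6 CPM in KI_f and at 56.2, 64.9, 69.3 and 52.8 CPM in KI_m. The ranges overlapped only between WT_m 1 and the 2 highest KI libraries. Its log2 fold change was -0.85 ± 0.17 (SE, FDR 0.00470). Without WT_f 1 and WT_f 2 it was -0.55 (FDR 0.00891), a call still made at a smaller value. H2bc6, an H2B gene with a log2 fold change of -0.45 (FDR 0.00506), shares 528 exonic bases with H1f4 on the same strand in GENCODE vM39. Reads there cannot be assigned to either with certainty, and the counts were made on vM32, where the overlap was not examined.

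H1f3, encoding H1.3, ranged from 24.2 to 69.9 CPM in WT (median 39.9) and from 18.4 to 30.7 CPM in KI (median 25.3), with a log2 fold change of -0.73 ± 0.17 (SE, FDR 0.00915). H1f5 and H1f1, 2 further replication-dependent subtypes, had log2 fold changes of -0.55 ± 0.23 (FDR 0.152) and -0.25 ± 0.17 (FDR 0.413). The replication-independent H1f0, which accumulates in resting and differentiated cells, was at 37.1 to 53.5 CPM in WT and 32.9 to 42.2 CPM in KI, with a log2 fold change of -0.10 ± 0.07 (FDR 0.406). H1f10, another single gene with a polyadenylated mRNA, had -0.24 ± 0.23 (FDR 0.565). Neither single gene passed the test.

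Among the H3 genes, all of which encode the near-identical replication-dependent H3, 4 of 10 were called lower and all 10 were below 0. H3c1 (ENSMUSG00000069265.3, chr13:23945836-23946369) was at 14.1, 12.7, 8.14 and 10.9 CPM in WT_f, at 5.57, 5.74, 7.28 and 9.75 CPM in WT_m, at 2.68, 4.03, 2.33 and 5.09 CPM in KI_f and at 1.62, 3.56, 3.53 and 3.23 CPM in KI_m. No KI library reached the lowest WT library. Its log2 fold change was -1.47 ± 0.20 (SE, FDR 0.000305, exact permutation p = 0.000408, again the smallest possible). H3c6 also did not overlap, at 10.5 to 19.6 CPM in WT and 8.53 to 10.5 CPM in KI, with WT_m 3 at 10.53 and KI_f 1 at 10.50, and a log2 fold change of -0.54 ± 0.11 (FDR 0.00562). Without WT_f 1 and WT_f 2 that value was -0.37 (FDR 0.0317) and the call was lost.

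H3c1, H3c6 and H1f2 were the 3 of 60 histone genes with every KI library below every WT library, where 1.15% of all genes were. H3c7 and H3c4 were called at -0.67 ± 0.19 (FDR 0.0333) and -0.51 ± 0.15 (FDR 0.0369), with overlapping ranges, and H3c4 lost its call in 11 of 27 alternative settings. H3c2, at 3.47 to 10.6 CPM in WT and 2.41 to 10.3 CPM in KI, was not called (-0.43 ± 0.31, FDR 0.449). WT_f 4, WT_m 4 and KI_f 2 all stood at 10.3 to 10.6 CPM and no other library exceeded 5.604 CPM.

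H4c1 (ENSMUSG00000060093.8, chr13:23944666-23945650, 3 exons), the neighbour of H3c1, was the called gene of the H4 class, out of 13 tested. It was at 6.07, 6.59, 6.71 and 6.41 CPM in WT_f, at 3.51, 2.81, 4.26 and 5.18 CPM in WT_m, at 2.54, 2.54, 3.44 and 3.07 CPM in KI_f and at 1.79, 1.65, 1.93 and 2.60 CPM in KI_m. The groups of each sex did not overlap, and only WT_m 2 fell within the KI range. Its log2 fold change was -1.06 ± 0.14 (SE, FDR 0.000305).

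The more abundant H4 genes differed less, with narrow errors. H4c4 ranged from 59.9 to 75.9 CPM in WT and from 45.8 to 63.6 CPM in KI, with a log2 fold change of -0.30 ± 0.06 (FDR 0.00659), and H4c3 and H4c8 had -0.37 ± 0.08 (FDR 0.00754) and -0.31 ± 0.10 (FDR 0.0557). All 3, with H4c16, passed the FDR and not the fold threshold. H4c9 had the highest value of the class, at 0.29 ± 0.13 (FDR 0.190).

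Among the 14 H2A genes, 5 were called lower. H2ac20 (ENSMUSG00000068855.4, chr3:96127677-96128196), the called gene of the chromosome 3 cluster, was at 21.0, 22.1, 17.3 and 20.1 CPM in WT_f, at 11.6, 11.1, 13.7 and 21.6 CPM in WT_m, at 10.97, 14.4, 10.5 and 11.8 CPM in KI_f and at 11.1, 10.4, 9.74 and 9.70 CPM in KI_m. The genotypes did not overlap within either sex, though WT_m 2 at 11.08 CPM lay close to KI_m 1 at 11.06 CPM, and 3 WT_m libraries were below the highest KI_f library. Its log2 fold change was -0.63 ± 0.12 (SE, FDR 0.00337). H2ac15 and H2ac13, the next highest H2A genes per kilobase, were not called, at -0.02 ± 0.16 (FDR 0.961) and -0.51 ± 0.23 (FDR 0.193), and 89.3% of the windows of H2ac13 are repeated.

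The other 4 called H2A genes were rare, with means under 2 CPM. H2ac22, H2ac7 and H2ac8 had log2 fold changes of -0.76 ± 0.26 (FDR 0.0755), -0.74 ± 0.27 (FDR 0.0974) and -0.58 ± 0.20 (FDR 0.0806), close to the threshold. Each lost its call in at least 13 of 27 alternative settings. The pseudogene H2ac5-ps had the lowest value, -1.74 ± 0.53 (FDR 0.0465), at 0 to 2.13 CPM in WT and 0.0861 to 0.504 CPM in KI. In GENCODE vM39 its whole length of 334 exonic bases is shared with the lncRNA gene Gm61579 on the same strand. It shares 171 bases with H2bc3 on the opposite strand. Reads there cannot be assigned to the pseudogene with certainty, and the counts were made on vM32, where the overlap was not examined. Without WT_f 1 and WT_f 2, or without WT_f 4 and WT_m 4, H2ac5-ps was not called.

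H2bc8 (ENSMUSG00000058385.9, chr13:23755570-23756187) was the only H2B gene called over both sexes, of 16 tested. It was at 19.6, 22.4, 14.1 and 19.4 CPM in WT_f, at 12.7, 13.7, 16.5 and 18.1 CPM in WT_m, at 10.97, 14.2, 9.30 and 8.68 CPM in KI_f and at 11.3, 9.51, 9.99 and 9.06 CPM in KI_m. Outside KI_f 2 all KI libraries lay below all WT libraries. Its log2 fold change was -0.70 ± 0.12 (SE, FDR 0.000999), beside -0.58 for H2ac8, which starts from the other side of the shared promoter shown above. H2bc4, the most abundant H2B gene, had -0.20 ± 0.07 (FDR 0.0889) and H2bc15 -0.42 ± 0.22 (FDR 0.254).

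**Figure D3:**
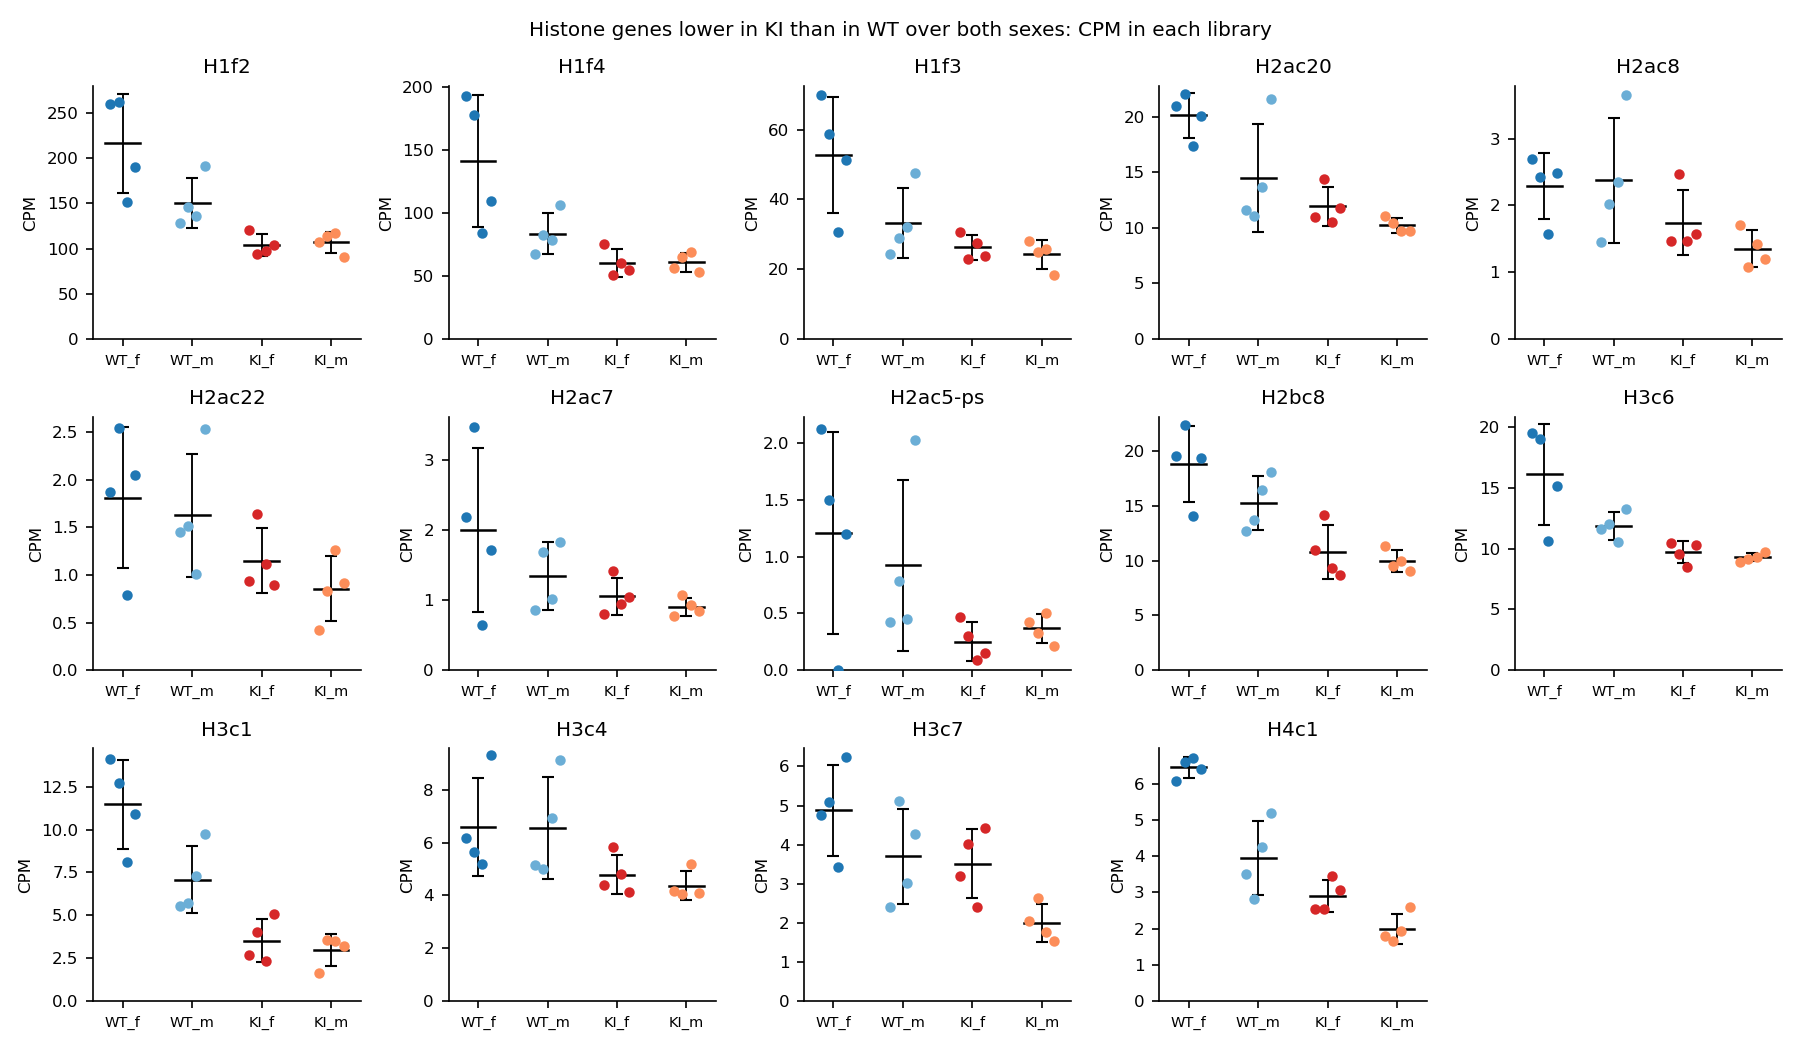
CPM of the 14 histone genes called lower in KI over both sexes, in each library (points; y axes from 0), with the mean and SD of each group of 4 (black lines). H1f2, H3c1 and H3c6 show no overlap between genotypes, and the WT_f group has the highest mean for all but H2ac8.

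By position, 13 of the 14 called genes lay on chromosome 13 and H2ac20 on chromosome 3. The chromosome 13 genes form groups separated by a gap without tested histone genes, so they were divided at 23 Mb, a division made after the values were seen. Among all genes tested, 50.4% were below 0 and 4.3% were called lower. Above 23 Mb, 28 of 28 tested genes were below 0, 12 were called and the median log2 fold change was -0.48. Below 23 Mb, 15 of 19 were below 0, 1 (H2ac22) was called and the median was -0.24. On chromosome 3, 7 of 7 were below 0, 1 was called and the median was -0.28. The difference between these groups was not tested, and genes within a group share neighbouring DNA and, in part, sequence. Genes with fewer than 50% repeated windows had 11 of 38 called and genes with 50% or more had 3 of 21. None of these groups was matched for abundance. Of the 30 histone genes with a mean CPM above the median of the tested genes 9 were called, and of the 30 others 5.

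**Figure D4:**
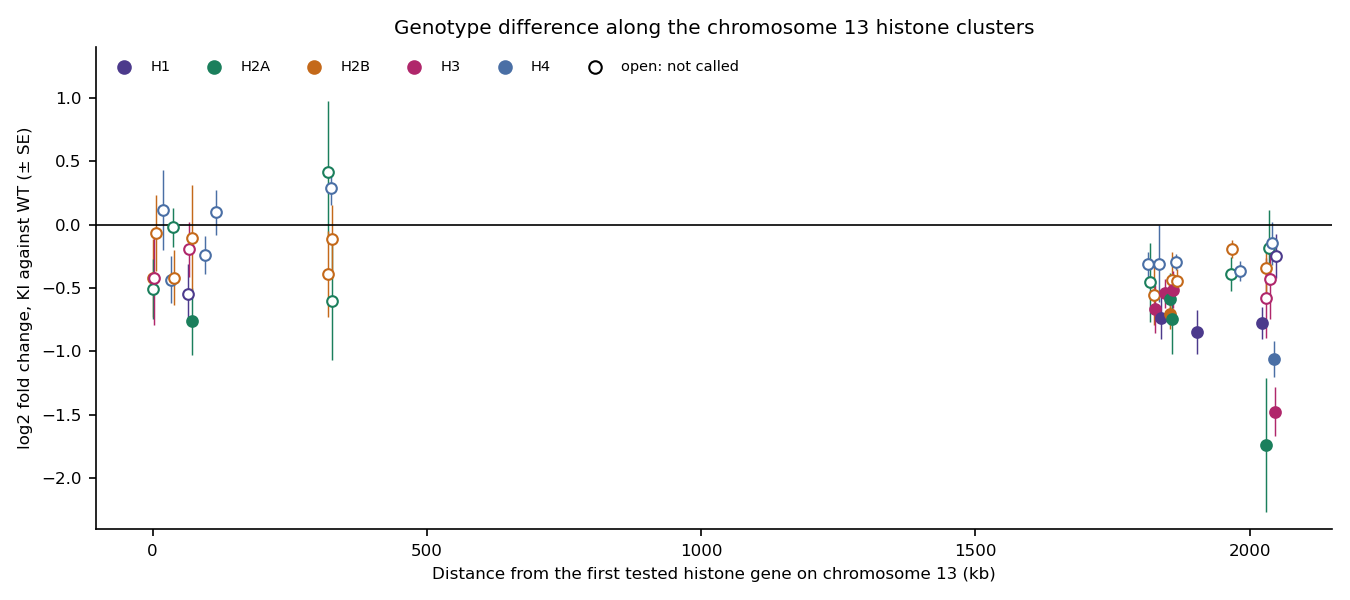
Log2 fold change of KI against WT (y axis, with the standard error) of the 47 tested histone genes on chromosome 13, by distance in kb from the first of them (x axis), coloured by class, filled where called. The genes to the right all lie below 0 and hold 12 of the 13 calls.

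Within females, 9 histone genes were lower in KI, where 4.33% of all genes were, and none was higher (2.82% of all genes), with 0 of 60 higher also at an unadjusted p below 0.05 (9.75% of all genes) and by DESeq2 and limma voom. Of the 67 entries of the cell type marker lists, 8 were also called lower in females (Gfap, Aqp4 and Aldoc of astrocytes, Cldn5, Flt1, Ly6c1 and Slco1a4 of endothelial cells and Rgs5 of pericytes), between -0.64 for Aldoc and -1.42 for Ly6c1, and 3 higher (Dcx, Gad1 and Syt1), and the part of these cells in the histone values was not tested. The 9 histone genes were H1f2 (-1.06), H1f3 (-1.003), H1f4 (-1.22), H2ac20 (-0.75), H2bc8 (-0.80), H2bc21 (-0.79), H3c1 (-1.69), H3c6 (-0.72) and H4c1 (-1.15). H2bc21, whose mRNA is found with a poly(A) tail and whose gene lacks the stem-loop by the search above, was not called over both sexes. It stood at 11.6 and 12.3 CPM in WT_f 1 and WT_f 2 and at 3.75 to 5.79 CPM in the other 14 libraries. Without these 2 libraries 4 histone genes were called lower in females, where 1.53% of all genes were.

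Within males, H4c1 was called lower (-0.95, FDR 0.0954), where 0.165% of all genes were, and none was higher (0.0878% of all genes). At an unadjusted p below 0.05, 19 histone genes were lower and 0 higher, where 6.05% and 5.62% of all genes were. DESeq2 called 3 lower (1.04% of all genes) and limma voom none (0.357%). The median log2 fold change of the 60 genes was -0.45 in males and -0.26 in females, and 55 and 50 of them were below 0. The female median was -0.13 without WT_f 4 and -0.40 without KI_f 2. The call of H4c1 was lost when any of 13 of the 16 libraries was left out.

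The difference between the sexes' genotype effects was tested directly. No histone gene had a genotype-by-sex interaction, where 0.0274% of all genes did. At an unadjusted p below 0.05 there were 4 histone genes, where 5.94% of all genes were, and DESeq2 and limma voom called none. A call made in females and missed in males therefore does not show a different effect. For sex itself, no histone gene was called by edgeR or DESeq2 and 1 by limma voom, against 0.0604% of all genes by edgeR, and 9 (H1f3, H1f4, H2ac20, H2bc6, H3c1, H3c6, H3c7, H4c1 and H4c16) were higher in females at an unadjusted p below 0.05, where 4.24% of all genes were.

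The histone genes did not all vary alike across the 16 libraries. In log2 CPM, H1f2 and H3c2 had a Pearson r of 0.20 with each other. An r above 0.7 was found for 12 histone genes with H1f2 and for 15 with H3c2, and for none with both. That last count depends on the level, since H2ac8 had 0.67 with H1f2 and 0.71 with H3c2. The libraries highest in H1f2, WT_f 1 and WT_f 2, were also highest in Fos (2456 and 2648 CPM), an immediate early transcription factor gene. The libraries highest in H3c2, WT_f 4, WT_m 4 and KI_f 2, were also highest in Mki67 (77.8, 59.2 and 49.3 CPM), a marker of dividing cells. Of the 60 histone genes 39 had a higher r with Mki67 than with Fos, the highest being H1f1 at 0.92.

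These values are descriptions, since r was computed for all 60 genes with Fos and with Mki67 and the genes named were picked from them. H3c1 had the highest r with Fos, at 0.89 over the 16 libraries, 0.85 within WT and 0.62 within KI. For H1f2 and Fos r was 0.81 over all libraries, 0.60 without WT_f 1 and WT_f 2, 0.82 within WT and -0.43 within KI, so the pooled value was not matched within KI. Fos itself differed by genotype, at 449 to 2648 CPM in WT and 194 to 606 CPM in KI, and its part in the histone difference was not tested. With Mki67, H3c2 had r = 0.87 over all libraries, 0.73 without WT_f 4 and WT_m 4, 0.90 within WT and 0.91 within KI.

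**Figure D5:**
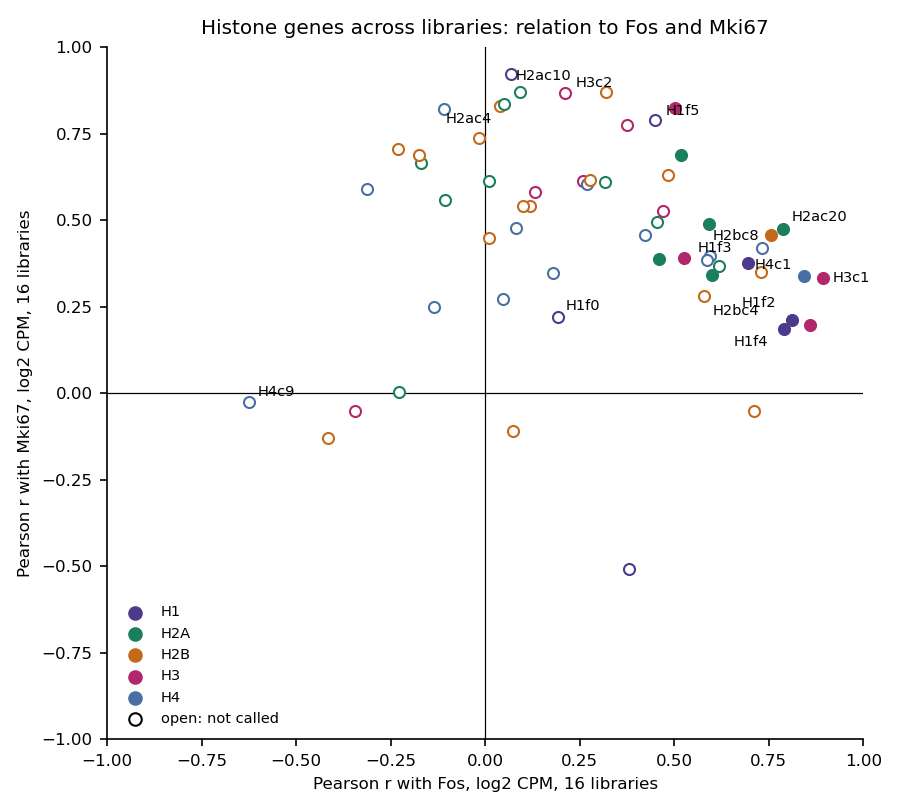
Pearson r of each of the 60 tested histone genes with Fos (x axis) and with Mki67 (y axis), from log2 CPM over the 16 libraries, coloured by class, filled where called lower in KI. The 14 called genes have r between 0.46 and 0.89 with Fos, and H1f1 is highest with Mki67 at 0.92. All points share the 16 libraries, and Fos differs by genotype as the called genes do.

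Lists of genes that act on the histone genes and their mRNAs held no called gene. Among all genes tested, 4.3% were called lower and 4.33% higher, so lists of 14 or 19 genes without a call do not stand apart. At FDR alone, 2 genes of histone mRNA processing and turnover, 2 of histone gene transcription and 1 histone chaperone passed. Of the 19 tested genes of histone mRNA processing and turnover, none was called. Slbp, the stem-loop binding protein, had a log2 fold change of -0.15 ± 0.06 (FDR 0.102), Smg1, a kinase of the decay pathway, 0.00 ± 0.05 (FDR 0.986), and Tut7, which adds uridines to histone mRNAs for decay, -0.24 ± 0.05 (FDR 0.00587), under the fold threshold. Of 14 genes of histone gene transcription none was called, with Npat at 0.02 ± 0.06 (FDR 0.888), the NF-Y subunit Nfya at -0.17 ± 0.04 (FDR 0.0155) and Creb1 at 0.03 ± 0.05 (FDR 0.749). Of 19 histone chaperones none was called, with Atrx at 0.11 ± 0.04 (FDR 0.0982) and the FACT subunit Supt16 at 0.02 ± 0.04 (FDR 0.854).

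Of the 9 replacement variants, H3f3b, which encodes H3.3, was called lower, where 4.3% of all genes were. It ranged from 412 to 885 CPM in WT and from 316 to 464 CPM in KI, with a log2 fold change of -0.62 ± 0.13 (SE, FDR 0.00673) and WT_f 1 and WT_f 2 highest, as for H1f2. H3f3a, which encodes the same protein, had -0.06 ± 0.05 (FDR 0.511), and Macroh2a1 -0.00 ± 0.04 (FDR 0.969). Genes of S phase and proliferation had 2 of 22 called lower, where 4.3% of all genes were, and a median of -0.16. Pcna, the replication clamp, did not overlap between genotypes, at 61.6 to 97.0 CPM in WT and 35.3 to 57.3 CPM in KI (-0.70 ± 0.10, FDR 0.000517). Every KI library was below every WT library for 1.15% of all genes. Cdc45, a subunit of the replicative helicase, had -0.64 ± 0.17 (FDR 0.0241). Mcm3 had -0.08 ± 0.06 (FDR 0.420) and Mki67 -0.41 ± 0.30 (FDR 0.453).

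Over both sexes, of the 67 entries of 12 cell type marker lists with a tested gene, 3 were called higher (Dcx and Igfbpl1 of neuroblasts and Mog of oligodendrocytes) and none lower. Among all genes tested, 4.33% were called higher and 4.3% lower, so the share of markers called higher was close to that of all genes. Within males no marker was called. The 6 neuroblast markers summed to 31.7 to 50.02 CPM in WT and 41.0 to 78.0 CPM in KI, the 9 neuron markers to 243 to 367 and 307 to 460 CPM, and the 6 oligodendrocyte markers to 231 to 428 and 282 to 413 CPM. Their median log2 fold changes were 0.38, 0.32 and 0.36, with 4, 4 and 3 markers past the FDR alone. The astrocyte markers summed to 355 to 608 CPM in WT and 287 to 429 CPM in KI, with a median log2 fold change of -0.22, the lowest of the lists, and the endothelial markers to 60.5 to 174 and 70.9 to 94.6 CPM (median -0.17). None of the red blood cell markers passed the count filter. The part of these cells in the histone values was not tested.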

How the data were processed

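CD11b-selected cells were taken, after papain digestion at body temperature, from olfactory bulbs and sequenced as stranded total RNA in 16 libraries. The kit primes reads at random, so transcripts without a poly(A) tail are captured. The deposited values are raw counts per gene, which the authors made with STAR from read pairs, on GRCm39 and GENCODE vM32, to which human App had been added. The strand setting and the treatment of reads that match several genes are not given in the sources used here. The labels do not say that replicates of a group are separate animals, so p-values measure the spread between these libraries.

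A gene was kept if 8 or more of 16 libraries had 5 or more counts (18227 of 57010, holding 99.9% of counts). TMM normalisation was followed by edgeR 4.0.16 (glmQLFit and glmQLFTest, R 4.3.3), with sex as an additive term. For contrasts within sex, and for their interaction, the 4 groups were fitted. Calls needed an FDR (Benjamini-Hochberg) under 0.1 and a log2 fold change beyond 0.5 in size. SE is the size of the log2 fold change over the root of F. Values in log2 CPM carry a prior count of 2. Permutation tests are two-sided. Intervals and limits from counts cover counting error only. Alternatives used limma 3.58.1, DESeq2 1.42.0, other normalisations and filters, and left-out libraries. Replicate numbers are shared by the groups, and the labels do not say whether they pair the libraries. The main test used no replicate block. The procedure was tested on simulated data.

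The members, gene lists and tests were chosen with earlier results of these data known. Named are every histone gene called in any test, the 3 highest of each class per kilobase, every tested H1 gene, genes at the edge of the filter, every called gene and the 2 most abundant genes of each pathway list, App and the sex genes. H2bc21, H2ac12, H3f3a, Slbp, Npat, Mki67, Fos and genes given as examples beyond this rule were added for their role. Positions and lengths are from GENCODE vM39, which matched 75 of 76 genes by symbol, and promoters from RefSeq.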

Additional observations from a re-analysis of the deposited data

Results flagged for a closer look

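In 10 of 128 groups of 4 libraries, over 27 named histone genes and the 5 class sums, 1 library stood apart from the other 3, by Dixon's test on log2 CPM at the 95% level. Chance alone gives this in about 1 of 20 groups. The library was the highest of its group for H3c2 in WT_f 4 (10.5 CPM, others 3.47 to 4.003), for H1f5 in WT_m 4 (10.9 CPM, others 5.65 to 5.85), for H2ac13 in WT_m 4 (9.34 CPM, others 5.34 to 5.83), for H2ac8 in KI_f 2 (2.46 CPM, others 1.46 to 1.57) and for H3c4 in KI_m 3 (5.21 CPM, others 4.05 to 4.17). WT_f 4, WT_m 4 and KI_f 2 are the 3 libraries highest in Mki67. The library was the lowest of its group for H3c1 in KI_m 1 (1.62 CPM, others 3.23 to 3.56), for H4c4 in KI_f 3 (45.8 CPM, others 55.6 to 57.7), for H1f0 in KI_f 2 (32.9 CPM, others 38.9 to 39.7), for H4c3 in WT_m 2 (18.2 CPM, others 19.6 to 19.9) and for H2ac13 in KI_m 4 (2.18 CPM, others 4.30 to 4.93).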

How the results depend on the processing

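The 14 genes called over both sexes kept a log2 fold change below 0 in every alternative that tested them, and H1f2, H1f3, H1f4, H2ac20, H2bc8, H3c1, H3c7 and H4c1 were called in all 29. The count was 9 by library totals alone, 9 without WT_f 1 and WT_f 2 and 9 without WT_f 4 and WT_m 4 (the last pairs of libraries were chosen after seeing the data), and 10 to 18 when each library was left out, lowest without 9 different libraries. Within females it was 4 without WT_f 1 and WT_f 2 and 8 to 13 with single libraries left out. Within males the count of 1 became 0 at FDR 0.05, by DESeq2 size factors, upper quartile normalisation, library totals, limma voom, and without WT_f 4 and WT_m 4. It became 2 with replicates 1 and 2 against 3 and 4 as a covariate and without WT_f 1 and WT_f 2, 3 by the DESeq2 test, 7 with any gene that had 1 count, and 0 to 3 with single libraries left out. With any gene that had 1 count the interaction had 4 calls and sex 1, and sex had 1 by limma voom and 1 with that covariate. These 2 counts were 0 with each library left out. The log2 fold change of H2ac15 lay above 0 at 0.0235 by library totals and at 0.0131 by limma voom, and at -0.0995 to 0.0914 with single libraries left out. The cause of these changes was not tested. Class sums kept their direction under other scalings, and library totals moved the median of all genes to 0.05 and the share of called genes that were higher to 57.4%.

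Same-numbered libraries of different groups had deviations correlated at -0.33 to 0.29, with 8 of 24 pairs above 0.1. Pairs with other numbers lay at -0.31 to 0.45, with 19 of 72 above 0.1. Of the 16 libraries, 8 correlated best with a library of their own number. Whether the numbers pair the libraries was not tested. With the replicate block, 12 histone genes were called over both sexes, 9 in females and 1 in males.

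Genes under 2 CPM rest on few counts per library, and how reads of repeated sequence were counted is not given in the sources used here.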
